A study of Mus musculus with 11 samples.

Results

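The MHC class II and invariant chain genes described here are H2-Aa, H2-Ab1, H2-Eb1, H2-DMa, H2-DMb1, Cd74 and Ciita. They were taken by gene symbol from a table of log2 expression values that lists 14604 genes, and all 7 symbols were found there. All 7 were also among the 13897 genes tested, which are those with a mean value of at least 0.5 over the 11 libraries.

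MHC class II molecules are pairs of an alpha and a beta chain that display peptides from the endosomal pathway to CD4+ T cells. H2-Aa and H2-Ab1 encode the alpha and beta chains of I-A, and H2-Eb1 encodes the beta chain of I-E. Cd74 encodes the invariant chain, which blocks the peptide groove and escorts the new molecule to endosomes, where H2-DM, the product of H2-DMa and H2-DMb1, helps to exchange its remnant for peptide. Ciita encodes the transactivator that switches these genes on, and in the mouse the pathway is best known from B cells, dendritic cells and macrophages.

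Tregs were sorted as live CD4+ GITR+ CD25+ cells from tumors of MC38, a mouse colon adenocarcinoma cell line implanted in mice, and from spleens of the tumor-bearing mice, and their ribosome-depleted RNA was sequenced. The wild-type group carries only the floxed Cd177 alleles (CD177flox/flox) and gave 3 spleen and 3 tumor libraries. The knockout group carries in addition FOXP3-CreYFP, a Cre recombinase with a yellow fluorescent tag that is made where Foxp3 is active, and gave 3 spleen and 2 tumor libraries. All groups thus share the floxed gene and the MC38 graft, no library comes from a mouse without a tumor, and the labels state neither strain nor age. The methods describe MC38 grafts in young C57BL/6 mice in general, without naming these genotypes, and the number of mice behind a library is not stated.

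The class II chain genes lie together on mouse chromosome 17 (GRCm38, GENCODE release M21). H2-DMa spans chr17:34119541-34139101 on the plus strand, H2-DMb1 spans chr17:34153072-34160230 on the plus strand, and H2-Ab1 spans chr17:34257689-34269419 on the plus strand. H2-Aa follows at chr17:34282744-34287823 on the minus strand and H2-Eb1 at chr17:34305867-34316674 on the plus strand. Ciita is at chr16:10480059-10528418 on the plus strand, and Cd74 is on another chromosome. All 7 are annotated as protein-coding genes.

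Class II promoters carry an X box, bound by the RFX complex, followed by a Y box, bound by NF-Y, and CIITA is recruited to the factors on them. The promoter sequences below are from RefSeq (GRCm38.p6) and are shown because this arrangement is the feature that several members share on the DNA. Capitals mark an X box core, spelled CTNGNAAC, and a Y box, spelled TGATTGG. Both patterns were searched on both strands, do not overlap each other, and were chosen after the sequences had been seen. For H2-Aa and H2-Eb1 the 120 bases before the RefSeq start are given, 5′ to 3′ on the gene's strand, from chr17:34287824-34287943 and chr17:34305747-34305866. No exon overlaps either window. For H2-DMb1, and for H2-Ob, which encodes a chain of the H2-DM inhibitor H2-O, 30 bases from the X box core are given, since an exon covers part of the window.
H2-Aa: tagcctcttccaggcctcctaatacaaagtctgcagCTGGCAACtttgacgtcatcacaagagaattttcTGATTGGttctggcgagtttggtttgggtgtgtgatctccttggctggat
H2-Eb1: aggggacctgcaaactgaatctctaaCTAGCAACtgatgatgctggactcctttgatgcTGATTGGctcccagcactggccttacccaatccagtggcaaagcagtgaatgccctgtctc
H2-DMb1: CTAGTAACtgatgatgctaggctgattcac
H2-Ob: CTAGCAACaaatgatgcaaagtcttcgctc

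The X box core began at position -84 in H2-Aa, -94 in H2-Eb1, -97 in H2-DMb1 and -90 in H2-Ob, counted from the RefSeq start. The Y box began at -50, -61, -63 and -59 in the same order. The bases between the boxes numbered 26 in H2-Aa, 25 in H2-Eb1, 26 in H2-DMb1 and 23 in H2-Ob. Of all 32851 promoters in the table, 10.9% held the X box core, 7.23% held the Y box and 0.0609% held the core followed by the box with 15 to 40 bases between them, in the 250 bases before the start. Neither pattern was found in the entries for H2-DMa. Their windows end at 34122831 and 34125517, inside the gene span given above, and an H2-DMa exon overlaps the first. The bases before the start of that span were thus not searched. H2-Ab1, Cd74 and Ciita had no matching entry. A match describes letters only, and H2-Ob, which holds the same arrangement, did not follow the members in the expression values.

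Each deposited value is log2(n + 1) of an estimated count n summed by gene symbol. Taken back to n, the libraries summed to between 712832 and 844331 in spleen and to between 1103159 and 1304548 in tumor. The methods give an approximate read depth, but how n was scaled is not stated, so the reads behind a single value cannot be recovered. Differences were tested on the deposited scale with limma and Benjamini-Hochberg adjustment over the 13897 genes, and a call means an adjusted p under 0.05. Cd177 was not among the genes listed, so the genotype labels were not checked from it. In spleen, knockout library 2 and wild-type library 1 stood apart, with the highest summed levels of B cell, dendritic cell and macrophage markers, so the tissue and genotype differences, the marker lists and the spread in spleen are also given without them. The sorted populations carried T cell and Treg markers in all 11 libraries, with a log2 summed level of 11.36 to 11.50 in spleen and 10.66 to 11.40 in tumor. The log2 summed level of macrophage and monocyte markers was lower than this in spleen, at 7.29 to 8.51. In tumor it was higher, at 13.11 to 13.60, so a tumor value cannot be assigned to Tregs alone.

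All 7 genes were higher in the sorted tumor samples than in the sorted spleen samples. The 5 tumor libraries lay above the 6 spleen libraries for every one of them, and the fold on the n + 1 scale ran from 8.66 for Ciita to 61.3 for H2-Eb1. The median difference of the 7 was 5.23 on the log2 scale, beside 0.08 over all genes tested. Differences between the tissues were common in these libraries. Of all genes tested, 78.9% were called in either direction, 43.1% were called higher and 35.9% lower in tumor, and 35.2% were higher in tumor with no overlap of libraries. Large differences were less common. H2-Aa, H2-Ab1, H2-Eb1, H2-DMb1 and Cd74, 5 of the 7, differed by at least 4, and 1.72% of genes tested were called higher with a difference of that size.

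**Figure D1:**
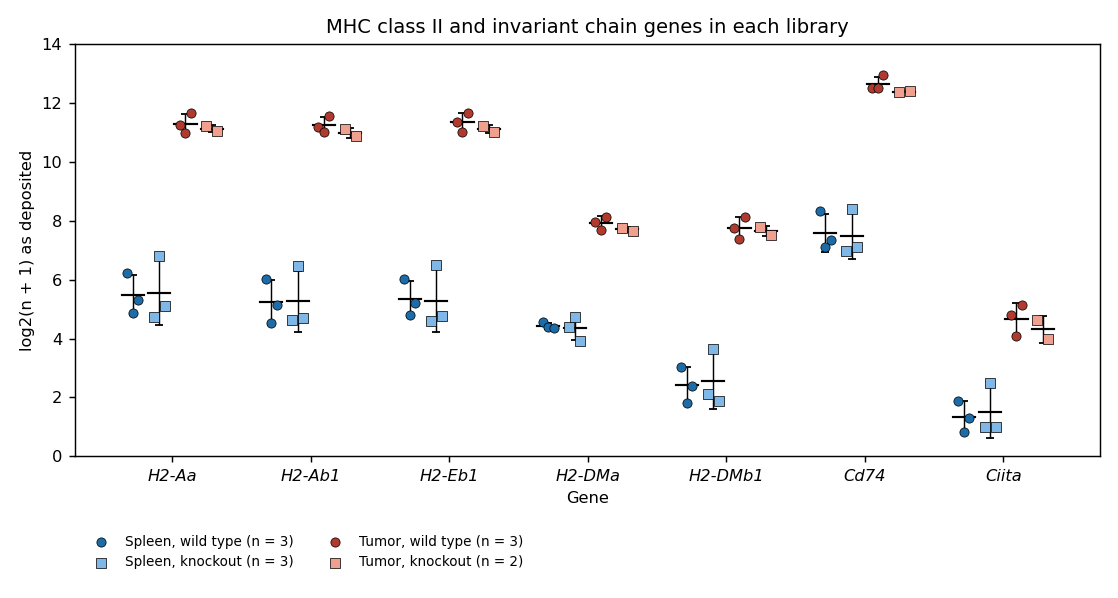
Deposited log2(n + 1) values of the 7 genes in each of the 11 libraries. The horizontal axis gives the gene, circles are wild-type and squares knockout libraries, blue is spleen and red is tumor, and lines give the mean ± SD of each group. Tumor libraries lie above all spleen libraries for each gene, and spleen knockout library 2 is the highest spleen point of each.

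The chains of the peptide-binding molecules moved by the largest amounts. H2-Aa read 6.21, 4.88 and 5.32 in the wild-type spleen libraries, 4.74, 6.80 and 5.12 in the knockout spleen libraries, 11.25, 10.98 and 11.65 in the wild-type tumor libraries, and 11.21 and 11.05 in the knockout tumor libraries. Spleen libraries spread over more than 2 log2 units while tumor libraries stayed within 0.68. The tumor minus spleen difference was 5.72 (SE 0.327, adjusted p = 5.13e-09 by limma), a 52.6-fold change.

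H2-Ab1, the partner chain of H2-Aa, read 6.04, 4.52 and 5.14 in wild-type spleen, 4.62, 6.46 and 4.69 in knockout spleen, 11.19, 11.02 and 11.55 in wild-type tumor, and 11.11 and 10.87 in knockout tumor. Its order of libraries was close to that of H2-Aa, with spleen knockout 2 and wild type 1 on top in spleen and wild type 3 on top in tumor. The difference was 5.90 (SE 0.327, adjusted p = 3.84e-09 by limma), or 59.8-fold. H2-Eb1, the I-E beta chain, ran from 4.61 to 6.51 in spleen, with a median of 5.0, and read 11.35, 11.02 and 11.66 in wild-type tumor and 11.22 and 11.01 in knockout tumor. Here too no spleen library came within 4 log2 units of a tumor library. Its difference of 5.94 (SE 0.313, adjusted p = 2.52e-09 by limma) was the largest of the 7 and stood at rank 57 of the 13897 genes when sorted from the largest rise.

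Cd74 read 8.32, 7.09 and 7.34 in wild-type spleen, 6.98, 8.40 and 7.10 in knockout spleen, 12.52, 12.51 and 12.93 in wild-type tumor, and 12.38 and 12.39 in knockout tumor. The tumor libraries were again close together except for wild type 3, which stood above the rest. Its tumor minus spleen difference was 5.01 (SE 0.263, adjusted p = 2.40e-09 by limma), a 32.1-fold change, and it stood at rank 114.

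The chains of H2-DM rose by unequal amounts. H2-DMa read 4.55, 4.40 and 4.37 in wild-type spleen, 4.40, 4.73 and 3.92 in knockout spleen, 7.95, 7.69 and 8.13 in wild-type tumor, and 7.76 and 7.66 in knockout tumor. It was the steadiest member in spleen, with a standard deviation of 0.27 over 6 libraries. The difference was 3.45 (SE 0.130, adjusted p = 1.44e-10 by limma), or 10.9-fold. H2-DMb1 read 3.03, 1.82 and 2.39 in wild-type spleen, 2.11, 3.63 and 1.89 in knockout spleen, 7.74, 7.39 and 8.12 in wild-type tumor, and 7.78 and 7.53 in knockout tumor. Its difference of 5.23 (SE 0.294, adjusted p = 4.32e-09 by limma) corresponds to 37.6-fold.

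The counting of both H2-DM chains is less certain than that of the other members. Of the 31-base words in H2-DMb1 transcripts, 31.4% also occur in H2-DMb2, its near copy, and pseudoalignment splits such reads between the genes by estimate. H2-DMa shares 9.23% of its words with Brd2 on the opposite strand, whose exons overlap it. Brd2 averaged 7.31 in spleen and 7.71 in tumor, a far smaller difference than that of H2-DMa. In spleen it stood well above H2-DMa, which read 3.92 to 4.73 there, so shared words could weigh more in the spleen values of H2-DMa. Their part in the H2-DMa values was not tested. Ciita shares 2.77%, most of it with Dexi on the opposite strand, and the other members share at most 1.41%. Use of the strand in the counting is not stated.

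Ciita had low values. It read 1.89, 0.84 and 1.30 in wild-type spleen, 1.01, 2.48 and 0.98 in knockout spleen, 4.80, 4.08 and 5.14 in wild-type tumor, and 4.65 and 4.0 in knockout tumor. Even the lowest tumor library exceeded the highest spleen library. The difference was 3.11 (SE 0.304, adjusted p = 7.63e-07 by limma), or 8.66-fold on the n + 1 scale, which understates the change of a gene so near to 0. With a pseudocount of 0.1 in place of 1 the difference was 3.73, and with 5 it was 2.0.

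An exact two-sided permutation test over all 462 ways to divide the libraries into 6 and 5 gave p = 0.0043 for each of the 7 genes, the smallest value this design allows. Leaving out spleen knockout 2 and wild type 1 widened the differences of the 7 genes, to 6.21 for H2-Aa, 6.40 for H2-Ab1 and 6.41 for H2-Eb1, and all 7 stayed called. These libraries were the highest in spleen for each of the 7 genes, so leaving them out could only widen the differences. Since tumors and spleens came from the same mice but the labels do not say which libraries share a mouse, these tests treat the libraries as independent. The p-values measure the spread between these libraries only.

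The rise was present in both genotypes. In wild type all 7 genes were called higher in tumor, where 39.2% of genes tested were. In knockout all 7 were called higher as well, against 36.2% of genes tested. H2-Ab1 differed between the tissues by 6.02 (95% interval 4.96 to 7.08) in wild type and by 5.73 (4.55 to 6.91) in knockout. Ciita differed by 3.33 (2.36 to 4.29) in wild type and by 2.83 (1.75 to 3.91) in knockout, the widest gap between genotypes among the 7. The interaction of tissue and genotype passed for 0 of 7 genes, with values from -0.50 for Ciita to -0.13 for H2-DMa and an adjusted p of 0.9997 for each by limma. Over all genes tested it passed for 0%, with 383 genes at an unadjusted p under 0.05. The interval of the interaction reached from -1.88 to 1.29 for H2-Ab1, so a genotype effect of about 1 log2 unit in either direction lies within it.

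**Figure D2:**
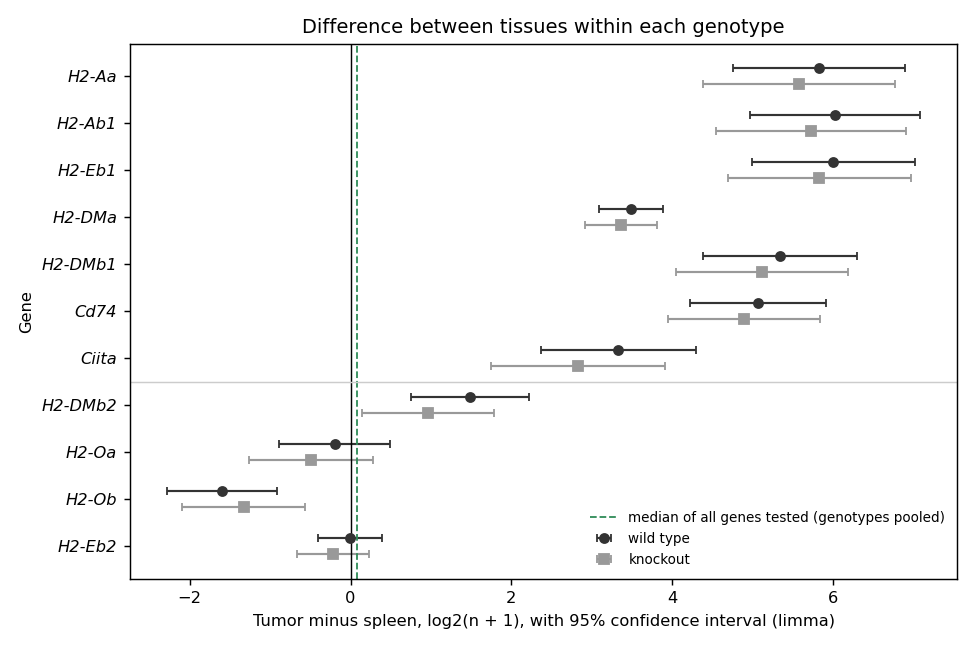
Tumor minus spleen difference in log2(n + 1), with 95% confidence intervals from limma, in wild type (dark circles) and knockout (grey squares). The 7 genes stand above the thin line and the other class II chain genes below it, and the dashed line marks the median of all genes tested, 0.08. The members lie between 2.83 and 6.02, H2-DMb2 at 1.49 and 0.96, and H2-Ob below 0 in both genotypes.

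Knockout and wild type were also compared within each tissue, which is the question of Cd177 loss in Tregs. In spleen 0 of 7 genes passed, as did 0% of genes tested (281 genes at an unadjusted p under 0.05). The knockout minus wild-type differences ran from -0.09 for Cd74 to 0.15 for Ciita, with an adjusted p of 0.9997 for each by limma. In tumor 0 of 7 passed, where 0.0072% of genes tested did (1 gene, with 634 at an unadjusted p under 0.05). All 7 values in tumor were below 0, from -0.35 for Ciita to -0.09 for H2-DMb1, again with an adjusted p of 0.9997 by limma. The intervals were wide. For H2-Ab1 they reached from -1.03 to 1.08 in spleen and from -1.45 to 0.92 in tumor, and for H2-DMa, the narrowest, from -0.49 to 0.31 and from -0.66 to 0.23. Without tumor wild type 3, the highest tumor library for all 7 genes, the tumor value of H2-Aa was 0.01 and that of H2-DMb1 was 0.09. Without spleen knockout 2 the spleen value of H2-Ab1 was -0.58 and that of H2-Aa was -0.54.

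**Figure D3:**
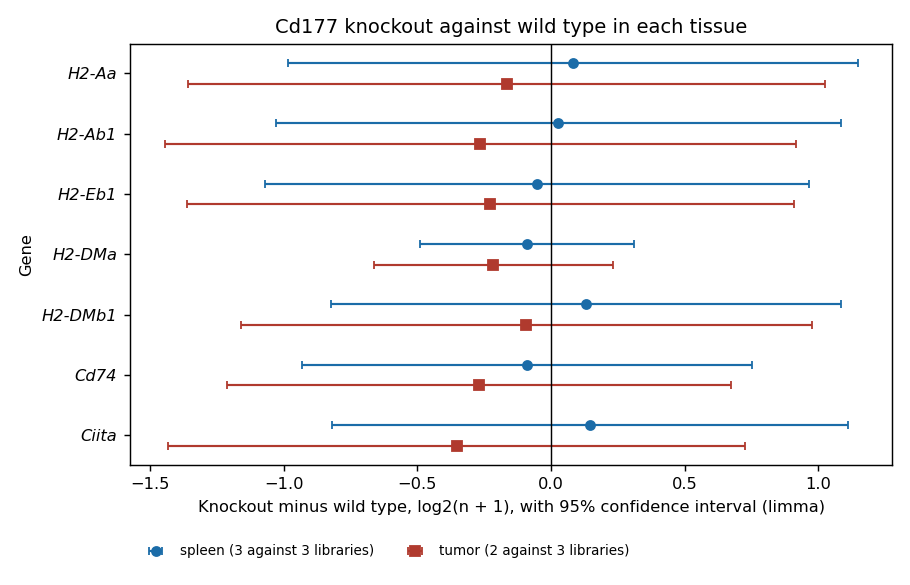
Knockout minus wild-type difference in log2(n + 1) for the 7 genes, with 95% confidence intervals from limma, in spleen (blue circles, 3 against 3 libraries) and tumor (red squares, 2 against 3 libraries). All intervals include 0, and that of H2-DMa is the narrowest in each tissue.

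Differences between members within a library show where the genes moved by unequal amounts. A scaling factor of a library cancels in them for values well above 0, but not fully for values near 0 such as those of Ciita and H2-DMb1 in spleen. With equal totals the same 5 of 6 pairs passed, with changes from -0.19 for H2-Aa minus H2-Ab1 to -2.48 for Ciita minus H2-Aa. Values of different genes are not per length, so only the change of each difference between tissues is read here. H2-Eb1 minus H2-Ab1 averaged 0.07 ± 0.11 in the 6 spleen libraries and 0.11 ± 0.06 in the 5 tumor libraries (mean ± SD). The change of this pair of beta chains, 0.04, was smaller than the spread of the libraries and did not pass (exact permutation test, adjusted p = 0.54 over 6 pairs). H2-Aa minus H2-Ab1 fell from 0.27 ± 0.13 to 0.08 ± 0.08, a change of -0.18 (exact permutation test, adjusted p = 0.021). That shift was small, and without spleen knockout 2 and wild type 1 its adjusted exact p was 0.057.

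The other 4 pairs changed more, each without overlap between tissues and each with an adjusted p of 0.0065 by exact permutation test. H2-DMa minus H2-DMb1 read 1.52, 2.58 and 1.98 in wild-type spleen, 2.29, 1.09 and 2.04 in knockout spleen, 0.22, 0.30 and 0.01 in wild-type tumor, and -0.02 and 0.12 in knockout tumor. The lowest spleen value lay above the highest tumor value, and the mean fell by 1.79 log2 units. H2-DMa minus H2-Aa averaged -1.12 in spleen and -3.39 in tumor, Cd74 minus H2-Aa averaged 2.03 and 1.32, and Ciita minus H2-Aa averaged -4.09 and -6.70. These 4 pairs also passed without spleen knockout 2 and wild type 1 (adjusted p = 0.024 by exact permutation test for each). H2-Aa thus rose more than Cd74, H2-DMa and Ciita did on this scale, and H2-DMb1 rose more than H2-DMa. The limits of counting given above for both H2-DM chains apply to these pairs as well.

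**Figure D4:**
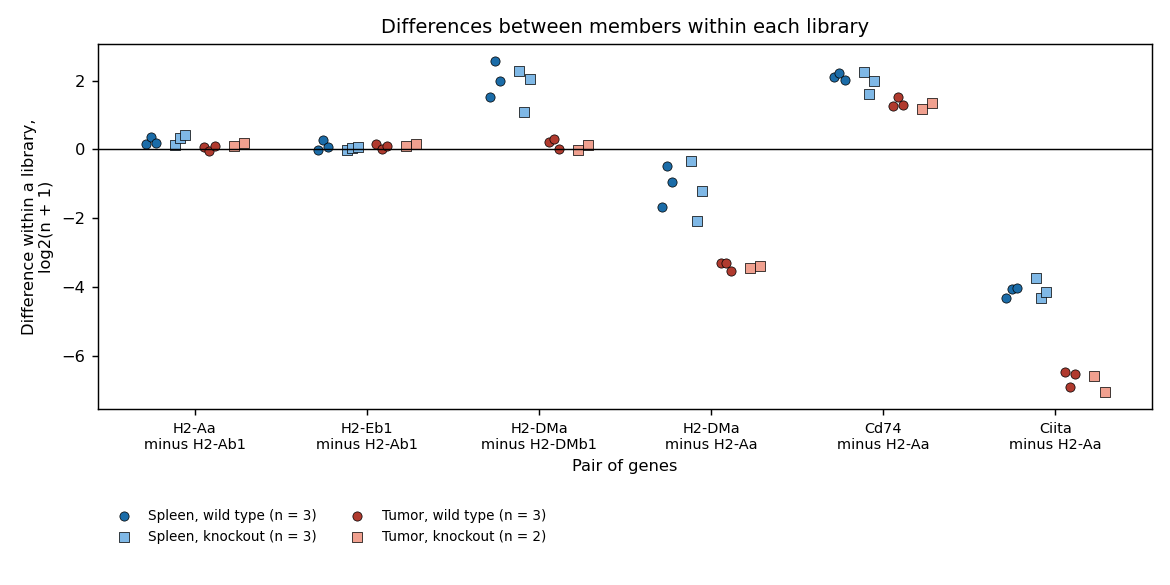
Difference between 2 genes within each library, in log2(n + 1), for the 6 pairs compared. Circles are wild-type and squares knockout libraries, blue is spleen and red is tumor. Spleen and tumor points are mixed for H2-Eb1 minus H2-Ab1, overlap for H2-Aa minus H2-Ab1 and are apart for the other 4 pairs.

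The remaining class II chain genes did not follow the members. H2-Ea and H2-Ea-ps were not listed, so the H2-Eb1 values describe a beta chain transcript and not a whole I-E molecule. Of the 4 tested, 1 was called higher and 1 lower in tumor by limma, with a median difference of -0.21. Over all genes tested 43.1% were called higher and 35.9% lower, the shares to set beside the counts of this and the later lists. H2-DMb2 rose from 3.37 ± 0.44 (SD, n = 6) to 4.62 ± 0.46 (SD, n = 5), a difference of 1.26 (adjusted p = 0.000284), and shares reads with H2-DMb1. H2-Ob, the beta chain of H2-O, fell from 4.11 ± 0.50 to 2.61 ± 0.31, a difference of -1.50 (adjusted p = 4.27e-05), with all tumor libraries below all spleen libraries. H2-Oa, its alpha chain, averaged 3.24 and 2.92 and did not pass (adjusted p = 0.19), though it was called lower under each of the other scalings. H2-Eb2 averaged 1.57 and 1.46 (adjusted p = 0.46) and was called lower after median centring and with equal totals. Within libraries, H2-DMb1 minus H2-Ob went from -1.64 ± 0.49 in spleen to 5.10 ± 0.37 in tumor, and H2-DMa minus H2-Oa from 1.16 ± 0.24 to 4.92 ± 0.40. These last changes are given as a description and were not tested.

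The genes that process the invariant chain and the peptides rose with the members. All 5 of 5 were called higher in tumor by limma, with a median difference of 4.27. Ctss, which encodes cathepsin S, a protease that trims the invariant chain, rose by 4.11, and Ctsl, for cathepsin L, by 6.10. Lgmn, for asparaginyl endopeptidase, rose by 5.10, Ifi30, for the thiol reductase GILT, by 4.27, and Sppl2a, for the protease that clears the last membrane remnant of the invariant chain, by 1.58. The largest adjusted p of these was 7.67e-10, that of Sppl2a. Of genes of class II turnover at the surface, all 3 listed were called higher, with differences of 2.52 for March1 (adjusted p = 4.92e-08), a ubiquitin ligase that removes class II from the surface, 2.29 for March8 (adjusted p = 2.39e-06), a related ligase, and 3.28 for Cd83 (adjusted p = 4.09e-09), which opposes March1.

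The factors on class II promoters did not rise as a group. Of 7, limma called 2 higher and 4 lower, where 43.1% and 35.9% of genes tested were, with a median difference of -0.52. Rfx5, Rfxank and Rfxap form the RFX complex that binds the X box. Rfx5 differed by -0.57 (adjusted p = 0.00246) and Rfxank by -0.73 (adjusted p = 1.02e-06), while Rfxap differed by 0.64 (adjusted p = 0.00188) but by 0.03, and without a call, with equal totals. Creb1, which binds next to the X box, differed by -0.63 (adjusted p = 2.18e-07). Among the NF-Y subunits, which bind the Y box, Nfya differed by 0.61 (adjusted p = 1.21e-05) but by -0.01 with equal totals, Nfyc by -0.52 (adjusted p = 0.00395), and Nfyb by -0.06 (adjusted p = 0.45), with a call under each of the other scalings. All of these values were small beside the 3.11 of Ciita.

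Of 7 genes that lead from interferon gamma to Ciita, limma called 5 higher and 1 lower, with a median difference of 0.57. Ifng, the cytokine itself, read 4.03, 4.48 and 4.86 in wild-type spleen, 4.61, 4.14 and 4.23 in knockout spleen, 7.52, 6.18 and 5.58 in wild-type tumor, and 6.36 and 4.88 in knockout tumor. The tumor libraries were far apart, and the lowest of them was barely above the highest spleen library. The difference was 1.71 (SE 0.36, adjusted p = 0.000684). The receptor genes Ifngr1 and Ifngr2 rose by 1.44 (adjusted p = 1.21e-06) and 1.33 (adjusted p = 9.27e-07), and the kinase gene Jak1 fell by 0.90 (adjusted p = 9.68e-09). Smaller differences of Jak2 (0.57, adjusted p = 0.00194) and Irf1 (0.56, adjusted p = 0.00218) became -0.05 and -0.07 with equal totals, and Irf1 was called lower, at -0.29 (adjusted p = 0.0285 by limma), with quantile normalization. Socs1, an inhibitor of the pathway, differed by 0.19 (adjusted p = 0.058), but was called lower with equal totals, at -0.43 (adjusted p = 0.000446 by limma).

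Among 6 genes for receptors and ligands of class II and CD74, limma called 4 higher and 2 lower, with a median difference of 1.75. Lag3, an inhibitory receptor for class II, rose by 2.46 (adjusted p = 5.71e-07), and its tumor libraries lay between 5.73 and 6.55. Mif, a ligand of CD74, rose by 2.67 (adjusted p = 6.39e-10), and Cd44, its co-receptor, by 2.04 (adjusted p = 5.13e-09). Of the chemokine receptors that pair with CD74, Cxcr4 rose by 1.47 (adjusted p = 5.87e-05) and Cxcr2 fell by 1.70 (adjusted p = 1.49e-08). Cd4, the co-receptor for class II, differed by -0.42 (adjusted p = 0.00348), but cells were sorted on its product.

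Macrophage and monocyte markers moved with the members, dendritic cell markers rose less, and most B cell markers did not rise. Of 13 macrophage and monocyte markers, limma called 13 higher in tumor, with a median difference of 4.73, and their log2 summed level was 7.29 to 8.51 in spleen and 13.11 to 13.60 in tumor. Lyz2, for lysozyme, differed by 7.60, C1qa, for a complement subunit, by 5.23, and Csf1r, for the receptor of macrophage colony-stimulating factor, by 3.12. Of 12 dendritic cell markers, 10 were called higher and 0 lower, with a median difference of 1.30 and summed levels of 4.84 to 6.15 in spleen and 8.0 to 8.78 in tumor. Itgax, for CD11c, differed by 4.53 and the chemokine gene Ccl22 by 4.58, both far above that median. Xcr1 read 1.26 to 1.49 in spleen and 1.42 to 1.89 in tumor, and Clec9a 0.12 to 1.06 and 0.78 to 1.08. Siglech went the other way without a call, from 1.45 to 2.84 in spleen and from 1.06 to 1.45 in tumor. Of 8 B cell markers listed, 1 was called higher and 5 lower, with a median of -0.81 and summed levels of 3.94 to 6.01 in spleen and 3.27 to 4.61 in tumor, and Pax5 was not listed. Without spleen knockout 2 and wild type 1, limma called 13 of 13 macrophage and monocyte markers higher, 9 of 12 dendritic cell markers higher, and, of the 7 B cell markers that then passed the filter, 2 higher and 3 lower. Cd79a, a chain of the B cell receptor, differed by -1.15 (adjusted p = 0.022 by limma) with all libraries, and by -0.70 without a call (adjusted p = 0.0799) without these 2. No marker was at exactly 0 in any library, although Ccl22 did not exceed 0.51 in spleen and Cd79a was as low as 0.10 in tumor.

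T cell and Treg markers did not move with the members. Of 12, limma called 1 higher and 8 lower in tumor, with a median of -0.49. Foxp3, the factor that defines Tregs, differed by -0.85 and Cd3e, of the T cell receptor complex, by -0.62, while Tnfrsf18, which encodes GITR, differed by 1.08 and was used in the sort. Of 6 stromal and endothelial markers listed, 5 were called higher and 1 lower, with summed levels of 5.94 to 6.27 in spleen and 8.89 to 9.97 in tumor. The 1 that fell was Pecam1, for the adhesion molecule CD31, by 1.72 (adjusted p = 8.07e-09 by limma), and its mean of 6.0 in spleen was close to the summed level of the whole list there. Of 2 tumor epithelial markers tested, 1 was called higher. The part of other cells in the rise of the members was not tested. In bulk samples, fewer cells of a type and less RNA per cell cannot be told apart.

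Set against these summed levels within each library, the members changed by different amounts. H2-Ab1 minus the macrophage and monocyte sum ran from -3.18 to -2.05 in spleen, with a mean of -2.62, and from -2.58 to -1.93 in tumor, with a mean of -2.23. The ranges overlap, and the means differ by 0.39. H2-Ab1 minus the dendritic cell sum went from -0.02 to 2.76, and minus the B cell sum from 0.73 to 7.56. H2-DMa, Ciita and Cd74, by contrast, changed less than the macrophage sum. H2-DMa minus that sum went from -3.50 to -5.55, Ciita minus that sum from -7.18 to -8.91 and Cd74 minus that sum from -0.29 to -0.83. Without spleen knockout 2 and wild type 1 these 3 spleen means were -3.29, -7.43 and -0.37, and that of H2-Ab1 was -2.80. These values are a description and were not tested.

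Members other than H2-DMa varied more than nearly all other genes between the 6 spleen libraries, and less so between tumor libraries. The standard deviation of H2-Aa over the 6 spleen libraries was 0.82, above that of 99.4% of genes tested, and over the 5 tumor libraries it was 0.26, above 64.9%. For H2-DMa the shares were 83.4% and 47.2%, and for Ciita 98.7% and 91.0%. The wide spleen spread rested on 2 libraries. Without knockout 2 and wild type 1 the standard deviation of H2-Aa over the other 4 was 0.26, above that of 82.7% of genes tested, and the shares of the 7 genes ran from 57.1% for Cd74 to 85.2% for H2-Ab1. For H2-DMa the library farthest from the mean was knockout 3, the lowest, at 3.92. Knockout 2 was the highest of the 6 and wild type 1 the next for all 7 genes, and these libraries also had the highest B cell sums (6.01 and 4.76), the highest dendritic cell sums (6.15 and 5.42) and the highest macrophage and monocyte sums (8.50 and 8.51). Over the 6 spleen libraries, as a description, Pearson's r of H2-Ab1 was 0.93 with the B cell sum, 0.93 with the dendritic cell sum, 0.90 with the macrophage sum and -0.50 with the T cell and Treg sum. Over the 5 tumor libraries the same values were -0.25, -0.09, 0.18 and 0.19. Knockout 2 and wild type 1 are the highest H2-Ab1 points among the 6, and r was not computed without them.

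**Figure D5:**
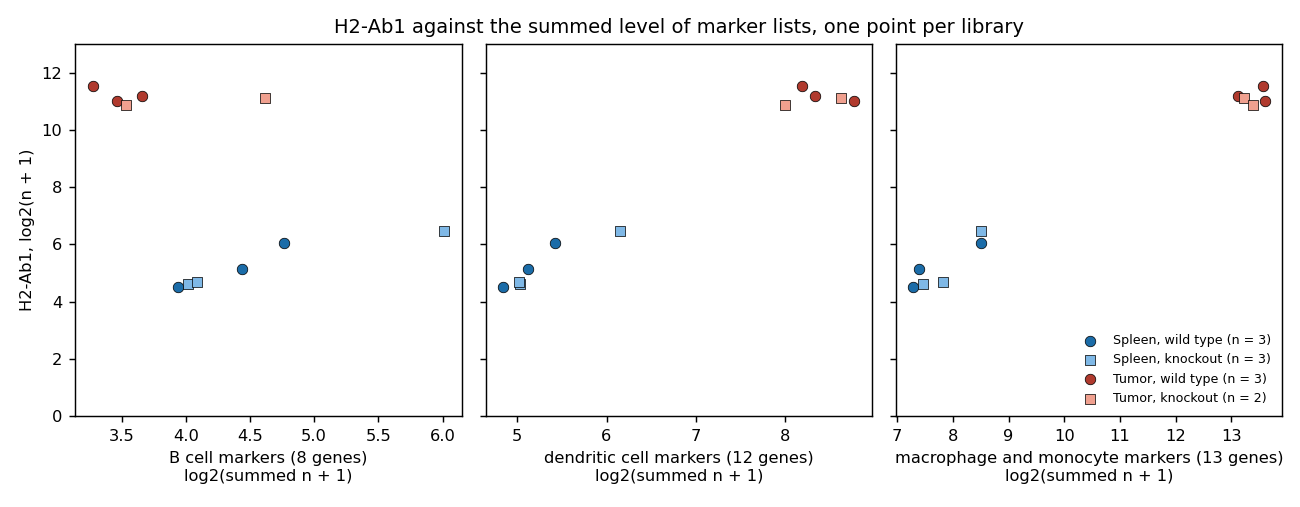
H2-Ab1, in log2(n + 1), against the log2 summed level of B cell (left), dendritic cell (middle) and macrophage and monocyte markers (right), 1 point per library. Circles are wild-type and squares knockout libraries, blue is spleen and red is tumor. Tumor libraries lie at lower or like B cell sums but at higher dendritic and macrophage sums than spleen libraries, and in spleen the libraries with high H2-Ab1 are those with high sums.

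Pattern likeness was measured by Pearson's r over the 11 libraries after the mean of each tissue was removed, among genes with a mean of at least 3. The genes most like H2-Ab1 were H2-Eb1 (r = 0.990), H2-Aa (0.985), Cd74 (0.977), H2-DMb1 (0.976) and Themis2 (0.938). For H2-Aa, H2-Eb1, Cd74 and H2-DMb1 as well, 4 of the 5 genes most like each were members, though Themis2 stood ahead of the last of these 4 for Cd74 (0.939 against 0.929 for H2-DMb1) and, by a narrow margin, for H2-DMb1. Ciita was most like H2-DMb1 (0.950), H2-Eb1 (0.936), H2-Ab1 (0.928), H2-Aa (0.925) and H2-DMb2 (0.876). Over the 11 libraries H2-DMa was the exception. None of the 5 genes most like it was a member, and the nearest was Csnk1d (0.898), while its r with H2-Ab1 was 0.721. Within the 6 spleen libraries alone, Ciita was most like H2-DMb1 (0.995), Cd22 (0.993), a B cell gene, H2-Ab1 (0.990), Adam9 (0.989) and Lyz2 (0.988). Within the 5 tumor libraries alone, none of the 5 genes most like each member was a member. Between members r there ran from 0.700 for Cd74 with Ciita to 0.984 for H2-Aa with H2-Eb1, and H2-DMa had 0.957 with H2-Ab1. The standard deviation of H2-Aa was 0.82 in spleen and 0.26 in tumor, so r over the 11 libraries rests more on spleen. With 5 or 6 libraries such values single out few genes, and they are given as a description.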

How the data were processed

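RNA of Tregs from 6 spleen and 5 tumor samples was analysed. The authors used kallisto with mm10 to estimate counts, passed these through sleuth 0.30.0 (per the submitters' processing notes), summed them by gene symbol and deposited log2(n + 1) values. For the kallisto version and the annotation: not given in the sources used here. Since the scaling of n is not stated, no counting interval was computed. Values were used without rescaling. Genes with a mean of at least 0.5 were kept (13897, with 707 removed). limma 3.58.1 in R 4.3.3 (lmFit, eBayes with trend) compared 5 tumor with 6 spleen libraries, and a model with 4 group means gave differences within genotype, the interaction and genotype differences. The 6 gene pairs and single members had exact two-sided permutation tests (scipy 1.17.1). Fits were tested on simulated data. The genes named are the members, pathway and marker lists, and the 5 genes most like each member. Brd2 and Dexi, which overlap members, were added after values were seen. Members and lists were chosen with earlier results of these data known, and some listed genes are not reported here. Positions and words of 31 bases shared between transcripts came from GENCODE M21, promoters from RefSeq. Alternatives changed scaling, pseudocount, variance model, filter, correction, covariates and libraries.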

Additional observations from a re-analysis of the deposited data

Results flagged for a closer look

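In 102 sets of 5 or 6 libraries, 1 library stood far from the rest of its tissue 7 times by Dixon's criterion. Chance gives about 1 in 20, or 5.1 here. Cd74 read 12.93 in tumor wild type 3, where the other tumor libraries read 12.38 to 12.52. H2-Eb1 minus H2-Ab1 was 0.27 in spleen wild type 2, against -0.01 to 0.07 in the other spleen libraries. Among pathway genes, Nfya read 5.65 in tumor knockout 2 (the others 5.43 to 5.49), Jak1 read 7.93 in spleen wild type 3 (the others 8.03 to 8.09) and Cd44 read 5.73 in spleen wild type 2 (the others 5.96 to 6.10). The log2 summed level of the B cell markers was 4.61 in tumor knockout 1, against 3.27 to 3.66 in the other tumor libraries, and that of the stromal and endothelial markers was 6.27 in spleen knockout 1, against 5.94 to 6.03.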

How the results depend on the processing

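For tumor against spleen, the 7 members kept their direction and their call in all 24 alternatives, with H2-Aa between 5.04 and 6.21, H2-DMa between 2.83 and 3.57 and Ciita between 2.0 and 3.73. The median of all genes tested was 0.08 as deposited, and scaling moved it to -0.16 (quantile), -0.14 (medians centred) and -0.45 (totals made equal). Within genotype, Ciita lost its call with Bonferroni correction (adjusted p of 0.189 in wild type and 1 in knockout by limma).

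With Bonferroni correction, genes called fell from 10971 to 5051 for tumor against spleen, from 9794 to 2449 in wild type and from 9127 to 1857 in knockout, and pathway genes called from 28 to 17. The 1 gene called in knockout against wild type in tumor went to 0 with quantile normalization, median centring, pseudocount 5, no filter, the replicate block and that tissue alone, and between 0 and 2 without 1 library. The interaction called 1 gene with a pseudocount of 0.1, and 0 to 1 without 1 library. The cause was not tested.

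With quantile normalization the tumor minus spleen values of Irf1 and Socs1 were -0.29 (called lower by limma, adjusted p = 0.0285) and -0.19, and with median centring that of Socs1 was -0.029. With equal totals they were -0.070 and -0.43 (the latter called lower by limma, adjusted p = 0.000446), that of Jak2 was -0.050 and that of Nfya -0.0059. H2-Eb1, knockout minus wild type in spleen, was 0.011 with equal totals.

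Genotype values of the members turned sign without being called. Leaving out spleen knockout 2 and wild type 1, which was chosen after seeing the data, gave interactions of 0.0072 for H2-Aa, 0.094 for H2-Eb1, 0.0056 for H2-DMa and 0.013 for H2-DMb1, and spleen values of -0.17 for H2-Aa, -0.17 for H2-Ab1, -0.11 for H2-DMb1 and -0.074 for Ciita. Over all alternatives, the interaction ran from -0.66 to 0.38 for H2-Aa, -0.69 to 0.31 for H2-Ab1 and -0.52 to 0.44 for H2-Eb1. It ran from -0.34 to 0.06 for H2-DMa, -0.55 to 0.32 for H2-DMb1 and -0.54 to 0.27 for Cd74. The low ends of H2-DMa and H2-DMb1 came with the replicate block, and the other ends without 1 library. The spleen value ran from -0.54 to 0.49 for H2-Aa, -0.58 to 0.43 for H2-Ab1, -0.66 to 0.29 for H2-Eb1, -0.28 to 0.12 for H2-DMa, -0.41 to 0.46 for H2-DMb1, -0.54 to 0.27 for Cd74 and -0.35 to 0.42 for Ciita, and the tumor value from -0.33 to 0.013 for H2-Aa and from -0.27 to 0.093 for H2-DMb1.

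Whether replicate numbers pair the libraries was not settled by the values. With groups of 2 or 3 libraries, low correlations cannot show that same-numbered libraries come from different mice. Deviations of same-numbered libraries from their group means correlated at -0.13 to 0.04, and only tumor knockout 2 was most like the spleen library of its own number. With the replicate block all 7 members stayed called for tumor against spleen (10512 genes in all) and within each genotype (9241 and 7752). A sign-flip test of the 5 number-matched differences called 0 of 6 gene pairs, with an adjusted exact p of 0.075 for 5 of them, but 5 pairs cannot give an exact p under 0.0625. Equal totals for the 6 gene pairs, also chosen after seeing the data, changed none of their calls. Values of Ciita in spleen are near 0, and the reads behind them cannot be recovered, which limits what can be said of them.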
